A study of Populus tremula x Populus alba with 64 samples.

Results

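The genes described here were 84 transcript rows of 83 poplar genes whose product names carry the words protein kinase, receptor kinase or receptor-like. They were taken from the study's list of rows ordered by the comparison of auxin-enhancer roots with their controls at 11 days, of which the first 1998 rows were at hand, and each was matched by its full row name to the 62007 transcript rows (37173 genes) of the count tables. All 84 were found. The choice therefore used measured values of that single comparison, which is given below as a description with no test, while the other tissues, times and treatments were tested.

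Rooted leafy cuttings of 1 clone, the hybrid Populus tremula × Populus alba INRA 717-1B4, had their leaves sprayed with auxin enhancers (AE, a mixture of 3 µM NAA and 4.5 µM IBA, both synthetic or storage forms of auxin) or with an auxin inhibitor (AI, 100 µM NPA, which blocks polar auxin transport). Controls received only the solvent of both agents, 1 N KOH, and AE and AI each had a control arm of its own, here control-AE and control-AI. PolyA RNA of roots and stems was sequenced at 24 h and at 11 days, giving 16 groups and 64 libraries. The agents were put on leaves, so roots and stems were not the sprayed organs, and the reads of this hybrid were aligned by the authors to the genome of another species, Populus trichocarpa. The labels number the replicates without stating that each came from a separate plant, so the p-values measure the spread between these samples.

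Protein kinases pass a phosphate group from ATP to serine, threonine or tyrosine residues of other proteins and so switch those proteins on or off. In plants most of them belong to the receptor-like kinases, which span the plasma membrane with a sensing part outside the cell and a kinase part inside, while soluble kinases carry the signal on: SnRK1 reports low carbon and energy, SnRK2 kinases respond to osmotic stress and abscisic acid, CIPK and CDPK kinases read calcium, and MAPK cascades relay stress and developmental signals. Wall-associated kinases (WAKs) bind pectin of the cell wall.

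By product name the members were 16 leucine-rich repeat (LRR) receptor kinases, 9 WAKs, 5 lectin S-domain receptor kinases, 11 other receptor-like kinases, 4 receptor-like cytoplasmic kinases, 5 CIPKs, 3 CDPKs, 4 members of the SnRK1 complex, 4 SnRK2 kinases, 4 MAPK cascade kinases, 2 shaggy (GSK3) kinases and 10 other protein kinases. The word rule also took genes that are not kinases, namely 5 receptor-like proteins (RLP14 and RLP15), which lack a kinase part, 2 SMR6 genes, which are inhibitors of cyclin-dependent kinases, and 3 regulatory subunits of SnRK1. The product names of At5g58300, At3g03770 and At3g28040, counted with the LRR receptor kinases, call them probably inactive. The gene of STY46 had 2 member rows. Of the 84 rows, 67 were the only row of their gene and 17 belonged to genes with several transcript rows, between which shared exons could split reads.

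Of the 64 libraries, 50 with at least 1000000 counts were used (3947526 to 21094004 counts, median 11322818), and the 14 left out held 93182 to 545250. Each group then had 2 to 6 libraries. In control-AE roots at 11 days the depth given in the labels was the reverse of the files for a pair of libraries: replicate 3, labelled acceptable, had 120199 counts and was left out, and replicate 2, labelled low, had 7784687 and was used. The tissue labels were checked with 8 rows of green-tissue genes (chlorophyll-binding, photosystem and Rubisco small-subunit proteins), all of which were higher in each stem library than in each root library, with summed levels of 10.7 to 108 CPM in roots and 1021 to 2613 CPM in stems. CPM is the count per 1000000 of the TMM-scaled library total. All 84 members passed the filter on low counts in roots and over the 16 groups, and 80 passed it in stems alone.

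The members were expressed at moderate levels, with a median of 13.6 CPM (range 1.04 to 453) against 7.56 CPM over all 27674 rows tested. Per kilobase of transcript, the highest member in roots was clkA (gene 7497859), at 261 ± 29.3 RPKM in roots and 203 ± 23.2 RPKM in stems (SD, n = 28 and 22). CIPK6 (gene 7465953), a kinase activated by calcium through CBL proteins, was the highest in stems, at 72.7 ± 16.96 RPKM in roots and 344 ± 60.4 RPKM in stems. The root levels of shaggy-related kinase eta (gene 7472291), of the kind that brassinosteroid signalling restrains in Arabidopsis, were 152 ± 16.5 RPKM and its stem levels 210 ± 14.4 RPKM. The lowest member in roots was RLP14 (gene 18111009), at 0.204 ± 0.101 RPKM, and the lowest in stems was the LRR receptor kinase At2g24130 (gene 7465971), at 2.31 ± 1.17 RPKM in roots and 0.0313 ± 0.0428 RPKM in stems.

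Several members are close neighbours of the same class. Sequence names and positions are those of the count tables, and their build was not stated in the labels or methods. Of the 9 WAKs, 4 (genes 18098024, 18098025, 18098027 and 18109932) lie on the minus strand of RefSeq sequence NC_037288.1 between 20599856 and 20785149, within 185294 bp that hold 14 genes, and another pair (genes 7460112 and 7460110) lies within 21245 bp of NC_037293.1, from 12064847 to 12086091. Of the 5 receptor-like proteins, 3 lie within 251810 bp of NC_037287.1, from 3320242 to 3572051. Neighbours of this kind are often copies of each other, and the handling of reads that fit several copies was not stated, so levels and shared directions within these clusters are uncertain and are not independent observations.

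In the comparison that chose the members, AE roots against control-AE roots at 11 days, the log2 fold change was positive for 56 members and negative for 28, with a range of -2.12 to 1.59, and its size was below 1 for 76 of them. The median size was 0.48. In edgeR, 0 of 25333 rows (0.0%) passed an adjusted p of 0.05 in this comparison, and 8.2% had an unadjusted p below 0.05. All 9 WAKs (median 0.46), all 5 receptor-like proteins (0.61), all 5 lectin S-domain kinases (0.56) and all 4 SnRK2 kinases (0.34) had positive values, and all 4 SnRK1 members (median -1.12) and both SMR6 genes (-0.55) had negative ones. Over all rows tested the median was -0.00354. Because the list was ordered by this comparison, these counts describe how the members were chosen.

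Many of the negative values came from 1 control library. Control-AE replicate 5 was the highest of the 3 control-AE libraries for 23 of the 28 members with negative values. It was the lowest of them for 34 of the 56 with positive ones. Without it the median of the negative members was -0.13 instead of -0.59, and that of the positive members 0.31 instead of 0.46, and 79 of the 84 kept their sign, while all 84 did without replicate 2 or without replicate 4. For 5 members its CPM was over 5 times the mean of the other 2 control libraries, and for 0 members this held of replicate 2 or replicate 4.

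SnRK1 is a trimer of a catalytic alpha subunit with beta and gamma regulatory subunits. The gamma-1 subunit of gene 7454550 had 26.5 CPM at the lowest, 29.95 at the median and 37.9 at the highest in the 6 AE roots, against 28, 30.7 and 218 CPM in control-AE replicates 2, 4 and 5. Its log2 fold change was -1.60 with all libraries and 0.06 without replicate 5. The beta-1 subunit (gene 7467971) had 38.0, 43.8 and 56.8 CPM at the lowest, median and highest in AE roots and 39.4, 36.5 and 301 CPM in the controls, with a log2 fold change of -1.48, or 0.26 without replicate 5. In control-AI roots of the same age these subunits stood at 39.6 to 88.2 and 56.9 to 140 CPM, above the AE roots and below that library. The second gamma-1 gene (7454708) gave -0.77, or -0.00188 without replicate 5, and the catalytic subunit KIN10 (gene 7461096), at 59.1, 66.2 and 67.8 CPM in AE roots and 72.1, 66.5 and 80.1 CPM in the controls, gave -0.18, or -0.10 without it.

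The same library set the value of MPK3 (gene 7480100), a MAP kinase of immune and stress signalling. It had 1.34, 1.72 and 1.98 CPM at the lowest, median and highest in AE roots, against 1.38, 0.533 and 12.5 CPM in the controls, so its log2 fold change was -1.57 with replicate 5 and 0.99 without. MAPKKK18 (gene 7454855), which acts in abscisic acid signalling in Arabidopsis, had 5.69, 8.56 and 10.8 CPM in AE roots and 6.91, 7.51 and 35.5 CPM in the controls, giving -1.06, or 0.17 without replicate 5. The most negative member, the LRK10-like 2.5 receptor kinase of gene 7484591, had 0.509, 0.903 and 1.17 CPM in AE roots and 0.628, 0.921 and 9.19 CPM in the controls (-2.12, or 0.08 without replicate 5). CRK15 (gene 112327363), a cysteine-rich receptor-like kinase, had 0.35, 0.718 and 0.99 CPM in AE roots and 1.01, 0.63 and 4.14 CPM in the controls (-1.52, or -0.14 without it). In these 4 genes the AE roots overlapped the control-AE libraries.

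AE and control-AE libraries did not overlap for 13 members, 12 with AE roots above and 1 below, against 2.5% of all rows. The list was ordered by this comparison, so a share above that of all rows follows from the choice. The one below was HT1 (gene 18097321), a kinase of stomatal responses to CO2 in Arabidopsis, with 0.99, 1.78 and 1.94 CPM at the lowest, median and highest in AE roots and 3.27, 2.62 and 7.93 CPM in the controls (log2 fold change -1.56, or -0.87 without replicate 5). Of those above, RLP14 (gene 18111009) had 1.05, 1.95 and 2.86 CPM in AE roots and 0.251, 0.872 and 0.606 CPM in the controls (1.59). The receptor-like kinase At5g20050 (gene 18107649) had 2.34, 2.45 and 4.02 CPM in AE roots and 2.26, 0.824 and 1.31 CPM in the controls (0.97). WAK-like 1 (gene 18110350) had 1.81, 2.58 and 3.44 CPM in AE roots and 1.26, 1.26 and 1.42 CPM in the controls (0.92). TMK4 (gene 18098931), of a family that carries auxin signals at the cell surface in Arabidopsis, had 1.79, 2.19 and 2.91 CPM in AE roots and 1.51, 1.45 and 0.808 CPM in the controls (0.88). CIPK20 (gene 7455901) also had a high value (0.93), but its libraries overlapped, with 1.75, 2.31 and 3.44 CPM in AE roots and 1.13, 1.84 and 0.808 CPM in the controls. These are all levels of a few CPM.

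**Figure D1:**
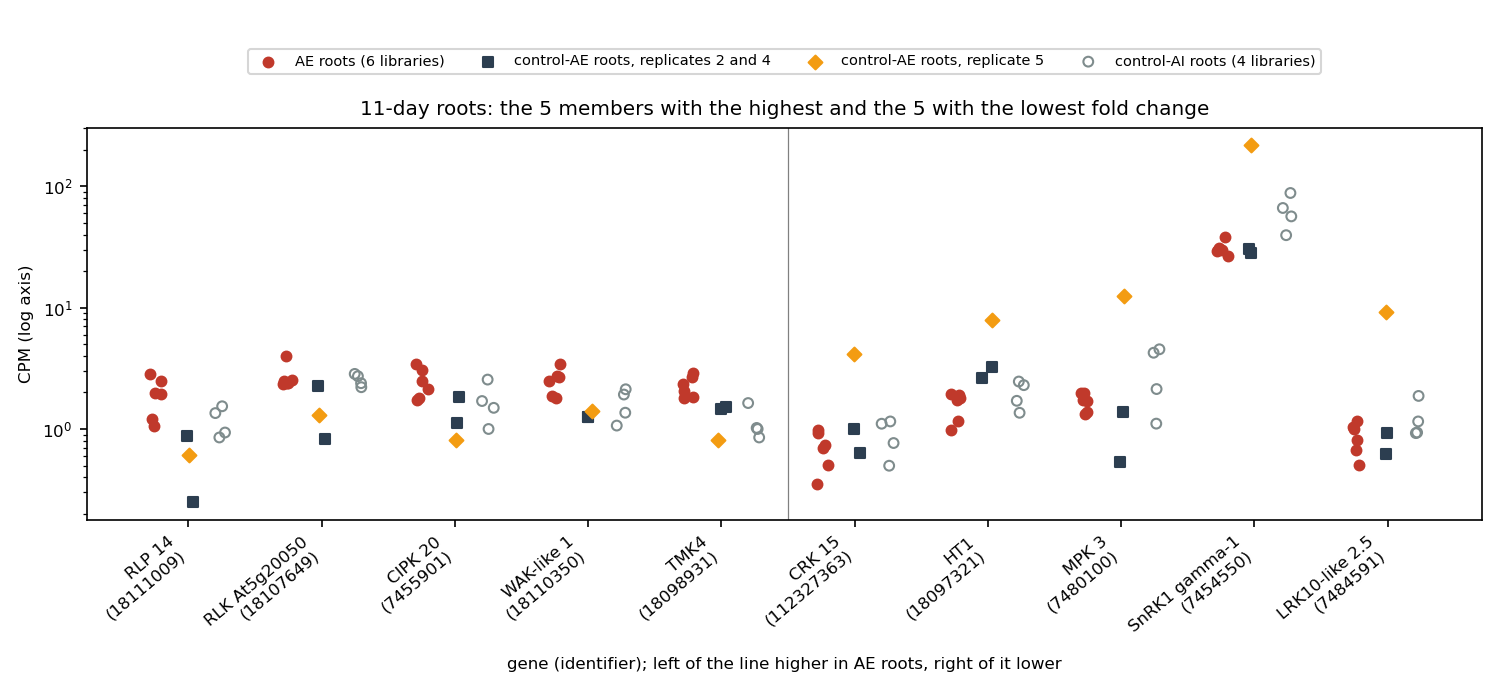
CPM on a log axis in 11-day roots for the 5 members with the highest and the 5 with the lowest log2 fold change of AE over control-AE, 1 point per library, with control-AI roots beside them. In the 5 lowest members control-AE replicate 5 is above each AE root and above control-AE replicates 2 and 4; those 2 lie within the AE range for SnRK1 gamma-1 and LRK10-like 2.5, replicate 4 lies below it for MPK3, replicate 2 just above it for CRK15, and both above it for HT1.

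The other control arm was also set against the same AE roots. These AE roots had entered the choice of members, so the counts that follow are a description. All 6 AE roots lay above each of the 4 control-AI roots for 6 members and below each of them for 9, against 9.79% of all rows (4.76% above and 5.03% below). The 2 control arms received the same KOH spray. MAPKKK17 (gene 7489735) was an example where the arms differed, with 2.69, 5.80 and 7.11 CPM at the lowest, median and highest in AE roots, 4.14, 3.73 and 3.33 CPM in control-AE roots and 1.42 to 2.89 CPM in control-AI roots. The last members before the end of the list at hand had log2 fold changes of 0.32 (At1g12460, gene 7465816), -0.59 (At3g28040, gene 7462018) and -0.70 (CDPK28, gene 18101083), and rows beyond it were not analysed here.

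No member passed the test for either agent in the comparisons that the choice did not use. This held in edgeR and in DESeq2 for AI roots at 11 days, AE and AI stems at 11 days, and AE and AI roots and stems at 24 h, each against its own control, with 84 members tested in roots and 80 in stems. Over all rows, edgeR called 12 (0.0479%) in AI stems at 11 days and 0 (0.0%) in each of the other 6 comparisons. Its adjusted p over all rows had to be below 0.05. The shares of all rows called by DESeq2 are not given here, so its count of 0 members is not set against them. At an unadjusted p below 0.05 there were 6 members in AI roots at 11 days (3.55% of all rows), 6 in AE stems (3.26%) and 10 in AI stems (9.4%) at 11 days, and 2 in AE roots (4.54%), 5 in AI roots (4.09%), 6 in AE stems (4.46%) and 2 in AI stems (1.34%) at 24 h. The median log2 fold change of the members lay between -0.05 and 0.01 in these 7 comparisons, and that over all rows between -0.01 and 0.01.

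The classes that were wholly positive in the comparison behind the choice can be followed through the others, where none of their members was called. The 5 receptor-like proteins had positive values in AE roots at 24 h (median 0.44), AE stems at 24 h (0.71), AE stems at 11 days (0.34) and AI stems at 11 days (0.73), and negative values in AI stems at 24 h (-0.56). In AI roots 4 of the 5 were negative at 24 h (median -0.36) and 3 at 11 days (-0.06). With no agent, control-AE stems over control-AI stems gave positive values for all 5 as well, with medians of 0.63 at 24 h and 0.81 at 11 days. Comparisons of AE and AI at one tissue and time were fitted together, and the 5 genes include 2 clusters of neighbours. Of the 9 WAKs, 8 had negative values in AI roots at 11 days, with a median of -0.27, and in AI stems at 11 days 6 of the 7 tested had positive ones, with a median of 0.44. RLP14 (gene 18111009) had 2.07, 2.60 and 1.12 CPM in the 3 AE roots at 24 h against 1.80, 0.996 and 1.66 CPM in control-AE roots, so the groups overlapped.

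The SnRK1 and SnRK2 members named next overlapped between AI and control-AI roots at 11 days. The gamma-1 subunit (gene 7454550) had 84.97, 38.5, 78.9 and 53.2 CPM in AI roots, against 56.5, 88.2, 66.3 and 39.6 CPM in control-AI roots, with each AI value inside or just below their range. KIN10 had a narrow range, at 65.4, 60.8, 66.8 and 65.5 CPM in AI roots and 64.5, 71.3, 57.7 and 64.9 CPM in control-AI roots. The SnRK2 kinase SRK2A of gene 18098269 had 149, 162, 157 and 161 CPM in AI roots and 156, 153, 170 and 178 CPM in control-AI roots, again overlapping.

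**Figure D2:**
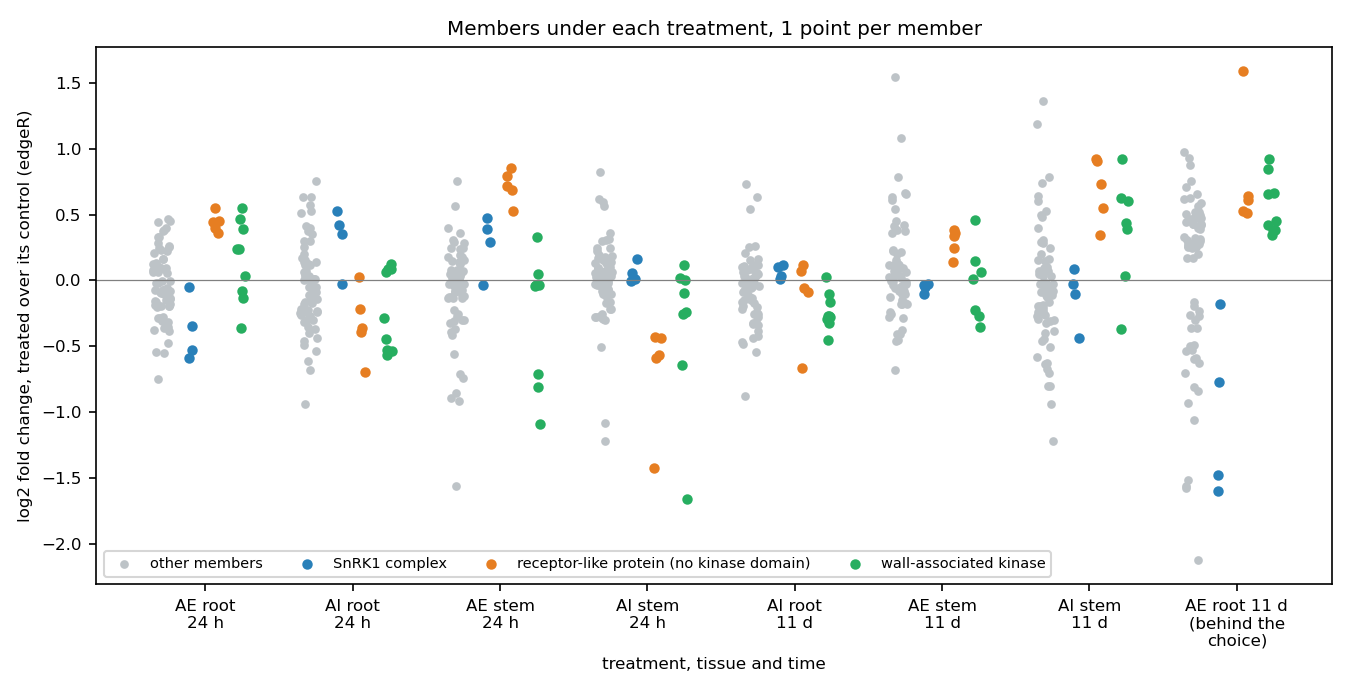
Log2 fold change of each member, treated over its own control, for each agent, tissue and time, 1 point per member, with some classes coloured. The last column is the comparison that chose the members; in the other 7 the points spread to both sides of 0 and none of the members passed the edgeR test.

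The 2 control arms, which had the same spray, were compared to see how far the members differ without an agent. By edgeR 0 members were called between control-AE and control-AI in roots at 24 h (0.025% of all rows, 0.00417% higher and 0.0209% lower in control-AE), stems at 24 h (0.0%) or stems at 11 days (0.0%), and 10, 7 and 7 members had an unadjusted p below 0.05 (19.2%, 7.99% and 3.91% of all rows). In roots at 24 h DESeq2 called 2 members (3.85% of all rows) and an edgeR fit of these 2 groups alone called 4 (6.56% of all rows).

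Root and stem differed in most members. In control plants at 24 h, 65 of the 84 members were called by edgeR, 39 higher and 26 lower in roots, against 54.1% of all rows (27.1% higher and 27.1% lower). At an unadjusted p below 0.05 there were 66 members, against 58.6% of all rows. In control-AI plants at 11 days 52 were called, 33 higher and 19 lower, against 47.4% of all rows (23.1% higher and 24.3% lower). The libraries of the 2 times are separate, and 50 members were called at both times, all in the same direction (31 higher and 19 lower in roots), which is 50 of the 65 called at 24 h and 50 of the 52 called at 11 days. The share of all rows called at both times was not counted, so this is not read as a trait of the members. The median log2 fold change of the members was 0.31 at 24 h and 0.28 at 11 days, with -0.00377 and -0.01 over all rows. The members came from a list of a root comparison and had higher levels than all rows tested (medians 13.6 and 7.56 CPM). The part of this in the counts and in the lean to roots was not tested. In these bulk samples fewer cells of a type and less RNA per cell cannot be told apart. The green-tissue sums given above moved with tissue in all libraries, and their part in the members' differences was not tested.

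Root and stem were also compared within each arm. In the 6 pairs whose root libraries the choice of members did not use (all 4 arms at 24 h, AI and control-AI at 11 days), 49 to 58 members were called, against 38.1% to 47.4% of all rows, and 40 members had higher values in roots in all 6 pairs and 28 in none. For these last counts the share of all rows was not counted. Over the 19 root libraries outside that choice and the 22 stem libraries, the ranges did not overlap for 26 members (14 with roots above and 12 with stems above), against 16.6% of all rows. With the 9 AE and control-AE roots of 11 days included they did not overlap for 20 members (12 with roots above and 8 with stems above), against 12.3% of all rows.

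Among the WAKs, all 9 were called at both times, 7 higher and 2 lower in roots. Of all rows 54.1% were called at 24 h and 47.4% at 11 days, and the share called at both was not counted. For 4 WAKs the root and stem libraries, with the roots behind the choice included, did not overlap, against 12.3% of all rows. The WAKs include the clusters of neighbours described above, so they are not separate observations. WAK-like 16 (gene 18098024) had 20.2, 10.7 and 7.14 CPM in control-AE roots and 17.8, 22.1 and 14.3 CPM in control-AI roots at 24 h, against 0.286 and 0.76 CPM in control-AE stems and 0.20 and 0.416 CPM in control-AI stems. It was barely read in stems and present in each root, with a log2 fold change of 5.20 ± 0.46 (SE, adjusted p = 2.65e-12 by edgeR) at 24 h and 6.26 ± 0.56 (adjusted p = 7.25e-12) at 11 days. WAK-like 11 (gene 18110496) had 8.56, 6.28, 5.28, 13.2, 15.6 and 12.2 CPM in the control roots at 24 h and 0.572, 1.90, 0.10 and 0.312 CPM in the control stems (4.21 ± 0.50, adjusted p = 2.94e-09, and 4.29 ± 0.62 at 11 days). Counts of both genes in all 22 stem libraries were 0 to 20, so the size of these fitted folds depends on the prior count. WAK-like 16 failed the low-count filter in stems at both times, and WAK-like 11 in stems at 11 days. Both passed it in roots, where they are high, so these tests are read as a description.

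WAK-like 1 and WAK-like 10 went the other way. WAK-like 1 (gene 18110350) had 1.98, 2.79, 2.45, 1.89, 3.25 and 2.64 CPM in the control roots at 24 h and 18.2, 29.7, 13.5 and 11.3 CPM in the control stems, with a log2 fold change of -2.78 ± 0.23 (adjusted p = 3.47e-13). WAK-like 10 (gene 18107870) had 1.17, 0.897, 1.17, 1.30, 0.976 and 0.528 CPM in the roots and 7.72, 13.9, 6.80 and 5.71 CPM in the stems (-3.03 ± 0.32, adjusted p = 2.61e-10). Both were lower in roots at 11 days too (-2.53 ± 0.29 and -2.58 ± 0.39). The 4 clustered WAKs on NC_037288.1 were all higher in roots but by different amounts, from 0.55 ± 0.23 for WAK2 (gene 18098027) to 5.20 ± 0.46 for WAK-like 16 at 24 h, and from 1.31 ± 0.28 to 6.26 ± 0.56 at 11 days.

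**Figure D3:**
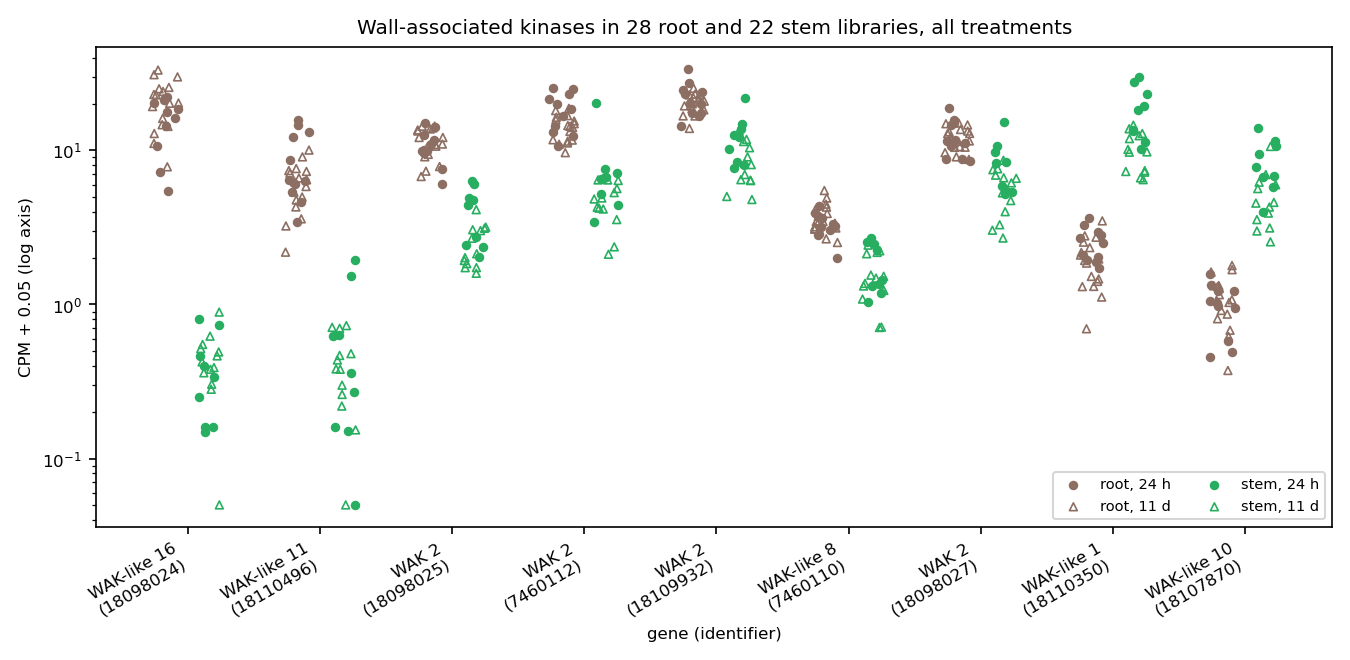
CPM + 0.05 on a log axis for the 9 wall-associated kinases in root and stem libraries at 24 h and 11 days, 1 point per library. Root libraries lie above stem libraries for WAK-like 16 and WAK-like 11 and below them for WAK-like 1 and WAK-like 10, and for the other 5 the ranges over all libraries overlap.

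Among LRR receptor kinases 8 were higher in roots, 5 lower and 3 not called at 24 h, and 9, 4 and 3 at 11 days. Over all rows 27.1% were higher and 27.1% lower in roots at 24 h, and 23.1% and 24.3% at 11 days. The same shares stand beside the class counts that follow. At2g24130 (gene 7465971) had 9.10, 13.95, 10.7, 8.67, 7.70 and 9.94 CPM in the control roots at 24 h and 0, 0.19, 0.20 and 0.312 CPM in the control stems. These stem values rest on 0 to 3 counts a library, and the fitted 5.89 ± 0.54 (adjusted p = 9.82e-12) and, at 11 days, 6.03 ± 0.66 depend on the prior count. This gene failed the low-count filter in stems at both times and passed it in roots, so its tests are read as a description. A second gene with the same product name (18094240) had the other direction at 24 h, at -1.11 ± 0.34 (adjusted p = 0.00605), and at 11 days, not called, -0.24 ± 0.42. FLS2 (gene 7470182), the receptor for bacterial flagellin in Arabidopsis, was higher in roots, with 13.9, 15.1, 17.5, 15.1, 12.5 and 16.7 CPM against 4.00, 2.09, 4.70 and 2.29 CPM in the stems (2.21 ± 0.35, adjusted p = 1.35e-06).

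The 2 HSL1 genes, named after HAESA-like receptors of small peptides, also split. Gene 7476640 had 5.31, 3.89, 3.82, 5.68, 4.44 and 1.94 CPM in the control roots at 24 h and 24.2, 47.8, 44.1 and 25.3 CPM in the stems (-3.08 ± 0.28, adjusted p = 5.71e-12, and -3.21 ± 0.34 at 11 days). Gene 18103071 was higher in roots by 1.14 ± 0.11 and 1.15 ± 0.13, and in both genes the root and stem libraries did not overlap. Receptor-like protein kinase 2 (gene 7467829) had 2.70, 3.89, 2.45, 2.99, 3.79 and 3.52 CPM in the roots and 55.9, 19.4, 23.5 and 28.04 CPM in the stems at 24 h (-3.27 ± 0.36, adjusted p = 5.05e-10). At 11 days its difference was -1.42 ± 0.41 (adjusted p = 0.00443), with 3.56, 6.80, 4.77 and 6.13 CPM in control-AI roots and 10.1, 8.14 and 23.1 CPM in control-AI stems.

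Of the other membrane kinases, 6 other receptor-like kinases were higher in roots, 3 lower and 2 not called at 24 h (7, 2 and 2 at 11 days). At5g20050 (gene 18107649) had 2.88, 2.29, 2.15, 1.40, 2.38 and 1.85 CPM in the roots and 0.191, 0.38, 0.10 and 0.104 CPM in the stems, the stem values from 1 to 4 counts a library (3.56 ± 0.48, adjusted p = 4.54e-08). It failed the low-count filter in stems at both times and passed it in roots, so this test is read as a description. At4g10390 (gene 7490737), a far more abundant transcript, had 122, 88.5, 65.0, 119, 140 and 104 CPM in the roots and 19.2, 15.8, 12.3 and 14.2 CPM in the stems (2.79 ± 0.20, adjusted p = 5.49e-15). LRK10-like 2.5 was lower in roots at both times, by -1.98 ± 0.37 at 24 h and -3.17 ± 0.46 at 11 days (adjusted p = 3.83e-07). The lectin S-domain kinases were mostly lower in roots, 3 of 5 at both times, with 1 higher at 24 h. RLK1 (gene 18097250) had 2.16, 4.09, 1.96, 2.59, 2.49 and 1.06 CPM in the roots and 16.3, 23.1, 15.9 and 17.03 CPM in the stems (-2.93 ± 0.21, adjusted p = 1.00e-14).

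Receptor-like cytoplasmic kinases, which carry signals on from the receptors, were all higher in roots at 24 h (4 of 4), and 3 of them at 11 days. PBL15 (gene 18094044), which failed the low-count filter in stems at 24 h, showed the largest difference of any member at that time. It had 30.5, 44.5, 33.6, 22.8, 22.7 and 42.9 CPM in the control roots, against 0.0953, 0.19, 0.40 and 0.727 CPM in the control stems, read from 1 to 7 counts a library (6.79 ± 0.40, adjusted p = 5.35e-17, and 5.06 ± 0.40 at 11 days). Since PBL15 gene 18094044 passed the filter in roots, where it is high, its 24-h test is read as a description. A second PBL15 gene (7491921) was higher in roots by 1.07 ± 0.22 and 1.09 ± 0.26. Receptor-like proteins differed little, with 2 of 5 lower in roots at 24 h and 0 called at 11 days.

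**Figure D4:**
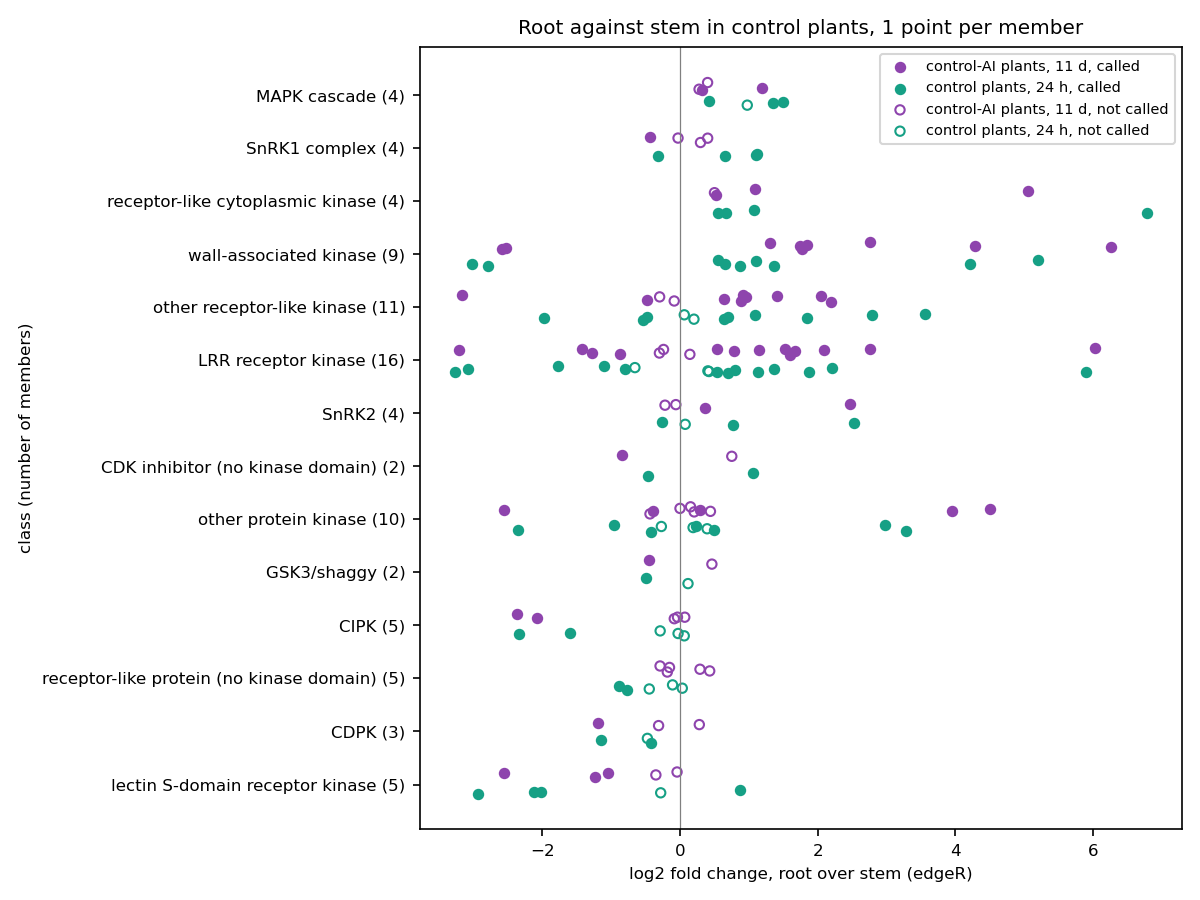
Log2 fold change of root over stem for each member by class, at 24 h (control plants) and 11 days (control-AI plants), with filled points for members called by edgeR. Wall-associated and LRR kinases reach from below -2.5 to above 5, the receptor-like cytoplasmic kinases lie to the right of 0, and CIPKs and CDPKs have no called member higher in roots.

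Among the soluble kinases no calcium-read one was called higher in roots, and some were called lower. Of 5 CIPKs 2 were lower in roots at both times and 3 were not called, and of 3 CDPKs 2 were lower at 24 h and 1 at 11 days. Over all rows 27.1% were lower in roots at 24 h and 24.3% at 11 days. CIPK6 had 90.7, 147, 106, 208, 102 and 138 CPM in the control roots at 24 h and 628, 803, 523 and 689 CPM in the control stems (-2.33 ± 0.17, adjusted p = 1.61e-14, and -2.36 ± 0.21 at 11 days). CIPK5 (gene 7493229) gave -1.60 ± 0.21 and -2.08 ± 0.25. STN7 (gene 7483929), the chloroplast kinase that phosphorylates light-harvesting proteins, was lower in roots too, with 18.5, 25.4, 25.6, 14.1, 9.10 and 20.9 CPM against 130, 77.6, 81.9 and 89.1 CPM in the stems (-2.35 ± 0.20 at 24 h and -2.55 ± 0.24 at 11 days, adjusted p = 1.08e-12 and 2.84e-11). Both rows of STY46, a kinase of chloroplast precursor proteins in Arabidopsis, were higher in roots, and the transcript variant X2 had 37.8, 33.4, 25.7, 40.9, 56.7 and 56.7 CPM in the roots and 4.48, 3.42, 3.20 and 5.71 CPM in the stems (3.28 ± 0.23, and 4.50 ± 0.29 at 11 days). The 2 rows share a gene and are not separate observations.

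The 3 SnRK2 kinases named SRK2A went different ways. SRK2A of gene 7465903 had 15.7, 12.6, 16.9, 24.8, 26.0 and 18.2 CPM in the control roots at 24 h and 3.53, 4.75, 2.20 and 2.80 CPM in the stems (2.53 ± 0.25, adjusted p = 3.48e-11, and 2.47 ± 0.29 at 11 days). SRK2A of gene 18097763 was higher in roots by 0.77 ± 0.12 and 0.36 ± 0.13 (adjusted p = 4.57e-07 and 0.0243). SRK2A of gene 18098269 was lower by -0.27 ± 0.08 at 24 h (adjusted p = 0.00714) and not called at 11 days (-0.22 ± 0.10, adjusted p = 0.0693). SAPK2 (gene 7465082) was called at neither time, at 0.07 ± 0.16 and -0.06 ± 0.19.

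In SnRK1 the catalytic subunit and the regulatory subunits differed in direction at 24 h. KIN10 had 63.5, 65.8, 73.7, 62.0, 68.3 and 63.0 CPM in the roots and 81.5, 79.3, 82.2 and 87.9 CPM in the stems (-0.32 ± 0.07, adjusted p = 0.000264, and -0.44 ± 0.09 at 11 days). The gamma-1 subunit of gene 7454550 had 88.6, 106, 152, 70.1, 54.3 and 100.2 CPM in the roots and 38.9, 46.0, 44.3 and 43.5 CPM in the stems (1.11 ± 0.37, adjusted p = 0.00998), the gamma-1 subunit of gene 7454708 gave 0.65 ± 0.25 (adjusted p = 0.0241) and beta-1 gave 1.12 ± 0.42 (adjusted p = 0.0223). At 11 days none of the 3 regulatory subunits was called (-0.03 ± 0.42, 0.30 ± 0.29 and 0.40 ± 0.48). Of the MAPK cascade, MMK1 and MAPKKK18 were higher in roots at both times (0.41 ± 0.08 and 1.35 ± 0.37 at 24 h, 0.32 ± 0.10 and 1.19 ± 0.44 at 11 days), MAPKKK17 was called at 24 h (1.497 ± 0.33, and 0.40 ± 0.40 at 11 days), and MPK3 was called at neither (0.98 ± 0.49 and 0.28 ± 0.61).

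Whether these tissue differences changed with time was tested in control-AI plants. The interaction was called for 0 of the 84 members by edgeR (0.00361% of all rows) and by DESeq2. The DESeq2 share of all rows is not given here. At an unadjusted edgeR p below 0.05 there were 11 members, against 6.34% of all rows. A member called at 24 h and not at 11 days, such as a regulatory subunit of SnRK1, was therefore not shown to differ between the times.

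Time was compared in control plants. In control-AI roots, 11 days against 24 h, edgeR called 0 members (0.065% of all rows) and DESeq2 called 1 (0.329% of all rows), and 11 had an unadjusted p below 0.05 (8.81% of all rows). All 5 receptor-like proteins had negative values there (median -0.66, none called). In control stems 12 of the 84 were called, 3 higher and 9 lower at 11 days, against 5.49% of all rows (2.59% higher and 2.9% lower). The median over the members was -0.05, and over all rows 0.00775. With all mapped libraries 4 members were called (2.34% of all rows), and with no filter on low counts 7 (2.71%). Leaving out each of the 10 stem libraries in turn gave 4 to 17 called members and 2.1% to 9.62% of all rows, with 4 without control-AE replicate 1 at 11 days or control-AI replicate 3 at 24 h, 5 without control-AE replicate 2 or control-AI replicate 1 at 24 h, and 7 without control-AE replicate 3 at 24 h or control-AI replicate 1 or 2 at 11 days.

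The 3 members higher at 11 days were of different kinds. CIPK5 (gene 7493229) had 113, 119 and 112 CPM in control-AE stems and 86.0, 89.1 and 63.5 CPM in control-AI stems at 11 days, against 62.6 and 26.96 CPM in control-AE stems and 48.7 and 46.2 CPM in control-AI stems at 24 h (1.05 ± 0.22, adjusted p = 0.00304). SMR6 (gene 7460759), a cell-cycle inhibitor, had 118, 67.6, 91.9, 121, 114 and 66.2 CPM at 11 days and 55.4, 44.3, 54.4 and 63.3 CPM at 24 h (0.83 ± 0.18, adjusted p = 0.00586). In both the libraries of the 2 times did not overlap. At4g10390 had 39.4, 22.3, 24.4, 21.8, 29.9 and 16.8 CPM at 11 days and 19.2, 15.8, 12.3 and 14.2 CPM at 24 h, which overlap (0.73 ± 0.19, adjusted p = 0.0151).

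Of the 9 lower members 4 were WAKs and 4 were LRR receptor kinases. FLS2 had 0.211, 0.177, 0.935, 0.663, 1.32 and 2.74 CPM at 11 days and 4.00, 2.09, 4.70 and 2.29 CPM at 24 h, with 1 library of 11 days within the range of 24 h (-1.85 ± 0.41, adjusted p = 0.00539). Receptor-like protein kinase 2 had 9.90, 15.7, 20.9, 10.1, 8.14 and 23.1 CPM at 11 days and 55.9, 19.4, 23.5 and 28.04 CPM at 24 h (-1.06 ± 0.33, adjusted p = 0.0497). The 3 WAK2 genes 7460112, 18098025 and 18109932 gave -0.89 ± 0.27 (adjusted p = 0.0408), -0.79 ± 0.24 (0.0467) and -0.66 ± 0.18 (0.0202). At 24 h gene 7460112 had 46 and 212 counts in the control-AE stems and 64 and 66 in the control-AI stems. Its 24-h level thus leaned on 1 library. WAK-like 1 had 9.69, 12.4, 9.73, 6.41, 11.9 and 10.1 CPM at 11 days and 18.2, 29.7, 13.5 and 11.3 CPM at 24 h (-0.79 ± 0.21, adjusted p = 0.0242). The others of the LRR class were At1g12460 (gene 7465816, -0.72 ± 0.21, adjusted p = 0.0347) and At3g03770 (gene 7467707, -0.55 ± 0.16, adjusted p = 0.0329). By its product name At3g03770 is probably inactive, and neither gene overlapped between the times. The last of the 9 was BSK6 (gene 7468028), of the brassinosteroid signalling kinases (-0.55 ± 0.16, adjusted p = 0.0367).

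Within classes, 8 of the 9 WAKs had negative values in stems at 11 days (median -0.65, 4 called), as had all 5 receptor-like proteins (median -0.75, 0 called) and 12 of the 16 LRR receptor kinases (median -0.55, 4 called). All 4 SnRK1 and all 4 SnRK2 members had positive values (medians 0.25 and 0.20), and none of them was called. Over all members 46 values were negative and 38 positive. In control-AE over control-AI stems all 8 WAKs tested had positive values at 24 h (median log2 fold change 0.91), and 3 of 7 at 11 days (median -0.03). For instance, 24-h stems had 18.2 and 29.7 CPM against 13.5 and 11.3 CPM in WAK-like 1. WAK2 (gene 18098025) had 4.38 and 6.27 CPM against 2.70 and 2.39 CPM. All 5 receptor-like proteins were positive at both times (medians 0.63 and 0.81). Of 15 LRR receptor kinases 10 were positive at 24 h (median 0.06) and 7 at 11 days (-0.05). None of these was called. The size of the WAK difference between the times was thus not the same in the 2 arms, and that difference was not tested.

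**Figure D5:**
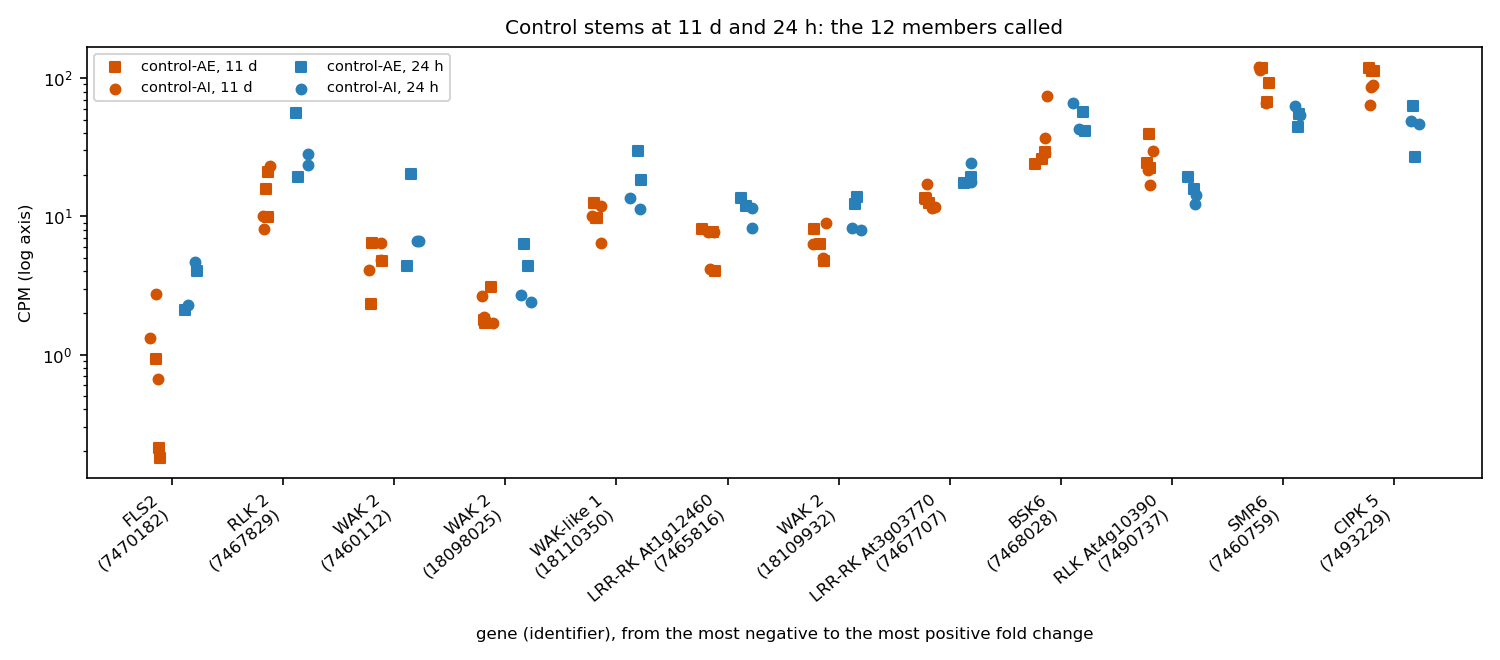
CPM on a log axis for the 12 members called between 11-day and 24-h control stems, 1 point per library, by control arm and time, ordered from the most negative to the most positive log2 fold change. FLS2 at the left lies below its 24-h range at 11 days in all but 1 library, and CIPK5 at the right is higher at 11 days in each library of both arms.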

How the data were processed

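PolyA RNA of roots and stems was sequenced as paired ends on Illumina HiSeq. Per the submitters' processing notes the authors used FastQC, STAR and featureCounts (Subread), with no versions; the methods name the Populus trichocarpa genome of Phytozome, whereas the tables carry RefSeq sequence names, so the build behind the positions is unsure. The deposited values were whole-number read counts per transcript row, with no normalization by the authors. How the authors assigned reads shared by rows or copies was not stated.

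Groups came from the labels. Libraries under 1000000 counts were left out (14 of 64). Counts were fitted with the edgeR 4.0.16 quasi-likelihood test (R 4.3.3, TMM scaling, filterByExpr with min.count 10 and min.total.count 15), Benjamini-Hochberg adjusted over all rows at 0.05. Treatments were fitted per tissue and time over 4 groups; tissue, time and their interaction in 1 fit of 50 libraries. Root 11-day tissue and time contrasts used control-AI only, since control-AE roots entered the rule. SE was taken as the size of the log2 fold change over the root of its F statistic. DESeq2 1.42.0, other scaling, no filter, all mapped libraries, counts summed per gene, 2 groups only, leaving out each library and a replicate block were alternatives. Scripts were tested on simulated data. Among 63 pairs of libraries within groups, 0 were identical, and chi-square per degree of freedom was at least 5.21, so each library counted once.

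Members and gene lists were chosen with earlier results of these data known. Named genes were the 5 highest and 5 lowest of the comparison behind the rule, up to 5 called members per direction in each test, all SnRK1, SnRK2 and MAPK cascade members, the highest and lowest per kilobase, those set by 1 control library (CPM over 5 times the mean of the other 2) and the last of the list. The second genes of HSL1, PBL15 and At2g24130, shaggy eta, BSK6, At3g03770 and the WAK2 genes 18098027 and 18109932 were chosen after their values were seen. Of the planned lists, root markers matched 0 rows, and other kinase genes and sequences were not analysed here, as no annotation of the rows was at hand. The study's own fold changes and p-values in its list were not used.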

Additional observations from a re-analysis of the deposited data

Results flagged for a closer look

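In 164 checks of 41 named members within groups of 4 to 6 libraries, 8 had a library far from the others of its group; chance gives about 1 in 20. In AE stems at 11 days, WAK-like 1 (gene 18110350) had 12.8 CPM in replicate 1 (others 6.59 to 7.34), SAPK2 (gene 7465082) had 19.8 CPM in replicate 5 (others 25.9 to 26.9) and RLK1 (gene 18097250) had 13.9 CPM in replicate 4 (others 18.7 to 20.8). In AE roots at 11 days, At5g20050 (gene 18107649) had 4.02 CPM in replicate 2 (others 2.34 to 2.55) and STN7 (gene 7483929) had 9.38 CPM in replicate 6 (others 13.6 to 16.8). In AI roots at 11 days, RLK1 had 4.09 CPM in replicate 3 (others 2.72 to 2.86). In control-AI roots at 11 days, STN7 had 13.9 CPM in replicate 4 (others 18.6 to 18.9) and SRK2A (gene 7465903) had 24.7 CPM in replicate 1 (others 18.1 to 19.1).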

How the results depend on the processing

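The median log2 fold change behind the choice was 0.27 to 0.36 when each library was left out in turn. With the libraries labelled acceptable in place of those with enough counts it was 0.38. Tissue counts stayed within 1.5 times of the main ones, at 56 to 65 members at 24 h and 45 to 53 at 11 days. With each library left out in turn, 13607 to 14564 of all rows were called at 24 h and 11822 to 12604 at 11 days. By single control arm, added after seeing the data, 53 (control-AE, 40.5% of all rows) and 52 (control-AI, 42.4%) were called at 24 h. For tissue under the other settings the share of all rows is not given here. Leaving out the roots behind the choice in the comparisons by arm and over all libraries was also added after seeing the data. In control stems, 11 days against 24 h, 7 members were called with no filter (2.71% of all rows) and 4 with all mapped libraries (2.34%). The replicate block called 0 (0.0108%) and DESeq2 13 (6.76%). Leaving out each library gave 4 to 17 (2.1% to 9.62%). DESeq2 called 1 member in control-AI roots between times and 2 between control arms in roots at 24 h, where 2 groups only gave 4. The cause was not tested. No called direction reversed; in the untested comparison behind the choice, 5 of 84 members changed sign without control-AE replicate 5. Deviations from group means were correlated between same-numbered libraries. In 17 treated and control pairs r ran from -0.272 to 0.350 (median 0.0952, 8 over 0.1). In 14 pairs of 24 h and 11 days its median was -0.0137, with 1 over 0.1. The signs were mixed and the labels do not state pairing, so the numbers were not taken as pairing. The replicate block gave 59 and 46 members for tissue at 24 h and 11 days and 0 for the treatments. The shares of all rows in these block fits are not given here. Groups held 2 to 6 libraries. For the WAKs with the lowest stem levels, stem values rested on 0 to 20 counts a library.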
